A study of Saccharomyces cerevisiae with 4 samples.

Results

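Meiosis and sporulation turn a diploid budding yeast (Saccharomyces cerevisiae) cell into haploid spores, and the 51 gene deletions described here remove genes of that programme. The members were chosen by name: spots whose gene symbol on the array platform, or a synonym of it, was a listed gene. All 51 were found, among 5325 deletion strains named on the array, and all 51 had a value on all 4 arrays, as had 5288 strains in total. Of the members, 18 act in meiotic recombination, 14 in spore wall formation, 11 at the prospore membrane and 5 in entry into meiosis or its divisions, and 3 are other genes named SPS. RRT12 was included with its large plasmid difference already known, so that difference is given as a description.

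In yeast, starvation induces the transcription factor Ime1 and the kinase Ime2, recombination begins with double-strand breaks made by Spo11, and the transcription factor Ndt80 then turns on the genes for the divisions and for spore formation. Prospore membranes grow from the spindle pole bodies around the daughter nuclei, and a wall of mannan, glucan, chitosan and dityrosine is laid down inside them. Cells that divide by mitosis use few of these genes. In the pools studied here meiosis took place in diploids that kept an intact copy of each gene, and the spores carrying the deletion then grew as haploids.

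Every sample came from a pool of 5896 heterozygous, haploid-convertible deletion strains in which a natMX cassette replaced CDC102, a synonym of PSF2, a subunit of the GINS complex of DNA replication. The pool carried a centromeric URA3 plasmid with the allele cdc102-1 in 2 samples and with wild-type CDC102 in the other two. The spores were spread on minimal medium without uracil and kept for 2 days at 28 or at 30 degree, with and without nourseothricin (Nat), the drug to which natMX gives resistance. The Nat plates select haploids with both deletions, and the plates without Nat hold single and double mutants. In the labels, both wild-type descriptions go on to name the sporulated pool cdc102-1, and the titles were followed. The labels give no strain background, mating type selection or number of cultures for the pools.

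Each strain carries short DNA tags, which were amplified from genomic DNA. Tags from the plates lacking Nat were labelled with Cy5, tags from the Nat plates with Cy3, and the mixture was hybridised to 1 array for each plasmid and temperature. A value is the deposited log2 ratio of the dyes, averaged over a strain's spots and reduced by the median of all strains on that array, so 0 is the median strain. Cy5 is the likely numerator, since the labels list its sample first. On that reading a higher value means fewer double mutants than the median strain gave. Named spots without a value numbered between 16 and 727 per array, and the SD over all strains was between 0.65 and 1.03. With 1 array per condition and no dye swap, a dye bias that belongs to a tag cannot be told apart from the strain's own level. Brightness over background is not known for these ratios, and having 4 arrays limits the precision.

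The meiosis and sporulation deletions lay close to the median strain. Their mean values over the 4 arrays ran from -0.68 for OSW1, an outer spore wall gene, to 0.71 for SPO73, a prospore membrane gene, with a median of 0.17. Over all strains the range was -5.13 to 3.34, with quartiles of -0.48 and 0.24 and the fullest bin of width 0.1 at 0.1 to 0.2, which holds 612 strains and the members' median. None of the members (0 of 51) had a mean at least 1 from the median, against 14.1% of all strains, and 4 (NDT80, OSW1, REC114 and SPO73) were at least 0.5 away, against 32.1%. All strains were not split by whether the haploid deletion can grow, here or in the shares below. Closeness to the median is therefore not read as particular to these genes. On every array 28 of 51 members stayed within 0.5 of the median, against 37.8% of all strains, and 48 within 1, against 68.8%. The exceptions to the last were REC114, DIT2 and RRT12. The members were on the higher side more often than all strains: 37 of 51 had a mean above 0, against 49.8%, and 21 were above 0 on all 4 arrays, against 26.7%. Without centring, which lowers all strains by 0.17 to 0.27 on an array, the members' median was -0.0378, so the higher side is relative to the other strains. Only NDT80, OSW1, SPO74 and REC8 were below 0 on all 4, or 4 of 51 against 27.6%.

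**Figure D1:**
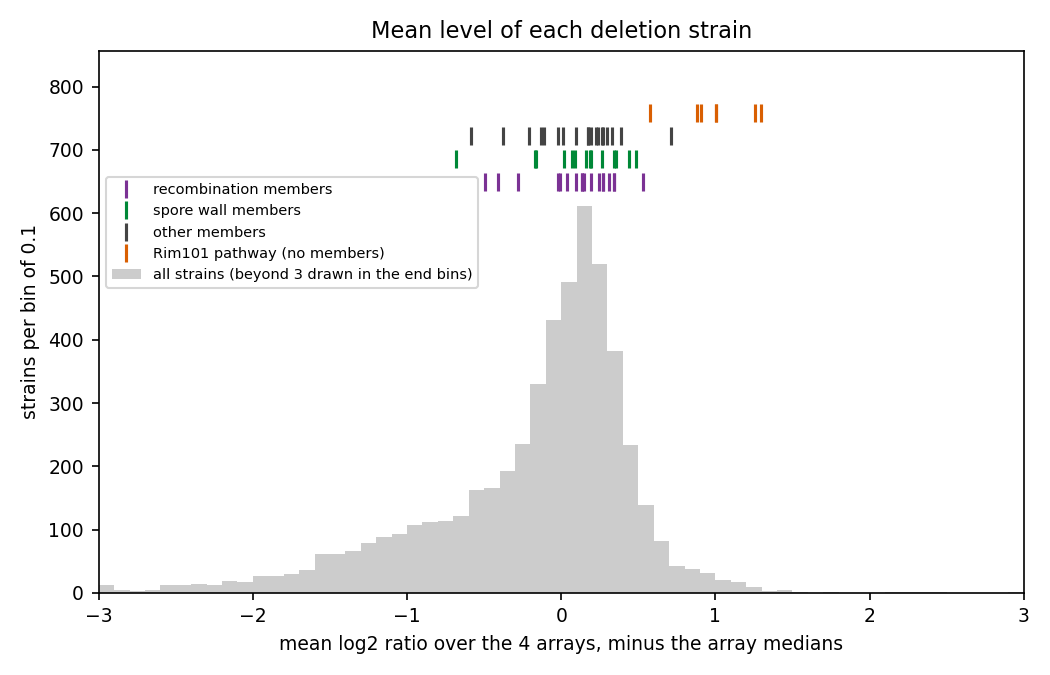
Histogram of the mean log2 ratio over the 4 arrays, minus the array medians, for all 5288 strains in bins of 0.1, with a vertical tick for each meiotic recombination, spore wall and other member and for the 7 genes of the Rim101 pathway. The members sit between -0.68 and 0.71 around the peak of the histogram, and the Rim101 pathway ticks lie from 0.58 to 1.30.

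In limma's test of the mean over the 4 arrays against 0, with plasmid and temperature as further terms and Benjamini-Hochberg adjustment over all strains, 3 of 51 members passed an adjusted p of 0.05, against 20.2% of all strains. SPO73 was higher, as were 4.48% of strains, and NDT80 and OSW1 were lower, as were 15.7%. At an unadjusted p under 0.05 there were 13 members, and 41.3% of all strains. The fit has 1 residual degree of freedom, which measures how far a strain's plasmid differences at 28 and 30 degree lie apart. The labels do not describe separate cultures, and p-values of this fit reflect that gap and a pooled variance, not spread between cultures. limma moves each strain's variance towards a value pooled over all strains, with 2.30 prior degrees of freedom. A standard error (SE) of the fit is therefore not a strain's own spread. For NDT80 it was 0.10, while its 4 values spanned 0.08. For SPO14 it was also 0.10, while its 4 values spanned 0.81. Among 3182 strains whose tags were under 1 apart on every array, 11 of 39 members were called, against 42.3% of those strains. With no further terms, the fit to 4 arrays called 6 members, against 25.8% of all strains. Fits to 3 arrays called 0 members without the cdc102-1 array at 28 degree (7.13% of all strains) or the CDC102 array at 28 degree (7.3%). They called 1 (OSW1) without the CDC102 array at 30 degree (11.5%), and 3 without the cdc102-1 array at 30 degree (16.1%).

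SPO73, which acts with Spo71 in prospore membrane growth, had values of 0.87 and 0.41 with cdc102-1 at 28 and 30 degree, and 0.78 and 0.80 with CDC102. It was the highest member, and the cdc102-1 array at 30 degree gave its lowest value. Its mean was 0.71 ± 0.12 (SE of the fit, as below), with an adjusted p of 0.043 in limma. Both of its tags were above the median, with means of 0.55 and 0.79. Neither tag alone passed, nor did the mean without centring. MEI4, with 1 gene between it and SPO73 on chromosome V, had a mean of 0.35 ± 0.11 and did not pass.

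NDT80 and OSW1 had steady values below the median on the 4 arrays, but these came from 1 of their tags. NDT80, the transcription factor of the middle sporulation genes, had values of -0.59 and -0.58 with cdc102-1 at 28 and 30 degree and -0.54 and -0.62 with CDC102, a mean of -0.58 ± 0.10 (adjusted p 0.044 in limma). Its first tag stood at -1.46, -1.36, -1.38 and -1.56 on these arrays, and its second at 0.21, 0.10, 0.20 and 0.23. The first tag was far below the median on every array and the second slightly above it.

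OSW1, needed for the outer layers of the spore wall, had values of -0.60 and -0.61 with cdc102-1 and -0.64 and -0.87 with CDC102, a mean of -0.68 ± 0.10 (adjusted p 0.038 in limma). Its first tag averaged -1.69 and its second 0.24. With the second tag alone the means of NDT80 and OSW1 turned positive, and neither was called. So SPO73 was the only called member whose tags lay on the same side of the median. Among all called strains with both tags on 4 arrays, 63 of 960 (6.56%) had tag means of opposite sign.

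**Figure D2:**
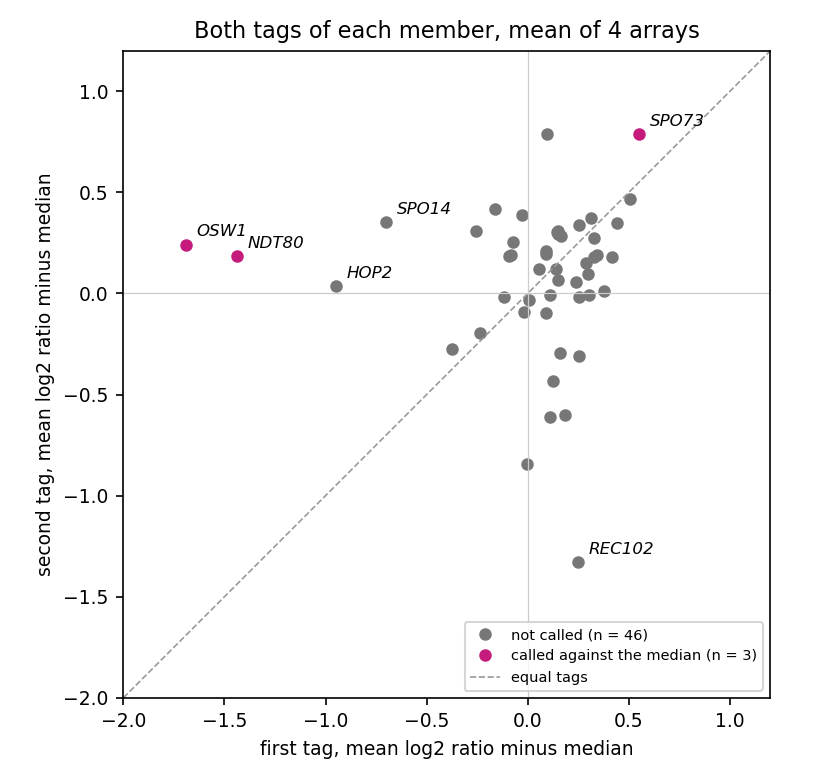
Mean log2 ratio minus the median over the 4 arrays for the first tag (x axis) and the second tag (y axis) of the 49 members measured with both tags on all arrays, with called members in colour and the line of equal tags dashed. OSW1 and NDT80 lie far to the left near a second-tag value of 0.2, REC102 lies low with a first-tag value of 0.25, and SPO73 lies near the line.

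The tags of a member often lay on different sides of the median, in 21 of 49 members with both tags against 29.8% of all strains. On every array 39 of the 49 had tags under 1 apart, against 65.7% of strains. Tag means differed by at least 1 in 4 of the 49, namely OSW1, NDT80, REC102 and SPO14, and in 12.6% of all strains. REC102, which works with Spo11 in break formation, averaged 0.25 with the first tag and -1.33 with the second. SPO14, the phospholipase D of the prospore membrane, averaged -0.70 and 0.35. Across the 49 members the tag means had a Pearson r of -0.01 and a Spearman rho of 0.09, against 0.477 and 0.533 over 4844 strains, whose levels spread more widely. Between arrays the likeness was higher. Without RRT12 the Pearson r of 2 arrays over 50 members was between 0.46 and 0.61, and with RRT12 between 0.06 and 0.54. Over all 5288 strains it was between 0.60 and 0.70. These are descriptions, since the arrays share the pool and its tags.

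Spot-to-spot error could be measured for other members than those with the widest tag gaps. The 12 members with 6 spots for each tag had a median SD over repeat spots of 0.061, and all values above 0.13 belonged to the first tag of ADY3, a protein of the prospore membrane's leading edge, at 0.57 to 0.96. The other 39 members, OSW1, NDT80, REC102 and SPO14 among them, had 1 spot for each tag, so their own spot error is unknown. Of all members, 48 had every spot on every array. SPO20, DIT2 and ADY3 lacked some, so their arrays average different spots.

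By role, the recombination members gave no call (0 of 18) in the test against the median, against 20.2% of all strains. Their median was 0.14, with means from -0.50 to 0.53. SPO11, the nuclease that makes the breaks, had values of 0.12 and -0.08 with cdc102-1 at 28 and 30 degree and 0.06 and 0.30 with CDC102, on both sides of the median. REC114, a partner of Mei4 in break formation, had 0.25 and 1.02 with cdc102-1 and 0.43 and 0.42 with CDC102, a mean of 0.53 ± 0.15 (adjusted p 0.090 in limma). All 4 of its values were above the median, and the highest was that of cdc102-1 at 30 degree. REC102 had -0.48 and -0.86 with cdc102-1, and 0.15 and -0.80 with CDC102, a mean of -0.50 ± 0.13 (adjusted p 0.081).

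Genes of the chromosome axis, strand exchange and synapsis stayed nearer to 0. DMC1, the meiosis-specific recombinase, had values of 0.08 and 0.11 with cdc102-1 and -0.22 and -0.06 with CDC102. ZIP1, the central component of the synaptonemal complex, ran from 0.05 to 0.22, and SPO16, which helps to start synapsis, from -0.04 to 0.13. With IME1, ZIP1 and SPO16 were the 3 members whose farthest array lay nearest to the median, though MSH4, ADY3, SPO75 and DMC1 had means closer to 0 than any of them. HOP2, which keeps pairing to homologous chromosomes, was lower at -0.77 and -0.70 with cdc102-1 and -0.48 with CDC102 at 28 degree, but stood at 0.31 with CDC102 at 30 degree. Its tags averaged -0.95 and 0.04.

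Spore wall members had a median of 0.17, with means from -0.68 to 0.49, and 1 call (OSW1) among 14, against 20.2% of all strains. SSP2, an activator of the kinase Smk1, had values of 0.66 and 0.42 with cdc102-1 and 0.30 and 0.56 with CDC102 (mean 0.49 ± 0.12, adjusted p 0.076 in limma). SMK1, the mitogen-activated kinase of spore wall assembly, had 0.18 and 0.52 with cdc102-1 and 0.53 and 0.52 with CDC102 (mean 0.44 ± 0.11, adjusted p 0.080). Both were above the median on all 4 arrays. DIT1, the first enzyme of dityrosine synthesis, had 0.10 and 0.55 with cdc102-1 and 0.31 and 0.40 with CDC102, and did not pass.

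The recombination and the spore wall deletions did not stand apart. The medians of the recombination members on the arrays were 0.10 and 0.10 with cdc102-1 at 28 and 30 degree and 0.18 and 0.27 with CDC102, and those of the spore wall members were -0.01, 0.20, 0.17 and 0.26 in the same order. The gap between the overall medians is below the SD of these medians over the arrays, which was 0.084 for recombination and 0.114 for the spore wall. Without RRT12 the spore wall median was 0.19. The SD over the recombination members was 0.36 and 0.42 with cdc102-1 at 28 and 30 degree and 0.27 and 0.31 with CDC102, and over the spore wall members 0.55, 0.42, 0.47 and 0.59 in the same order. Without RRT12 the spore wall SDs were 0.29, 0.42, 0.29 and 0.58, so the spore wall spread remained the wider on the CDC102 array at 30 degree, where DIT2 had its value from a single high tag. These spreads were not tested.

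**Figure D3:**
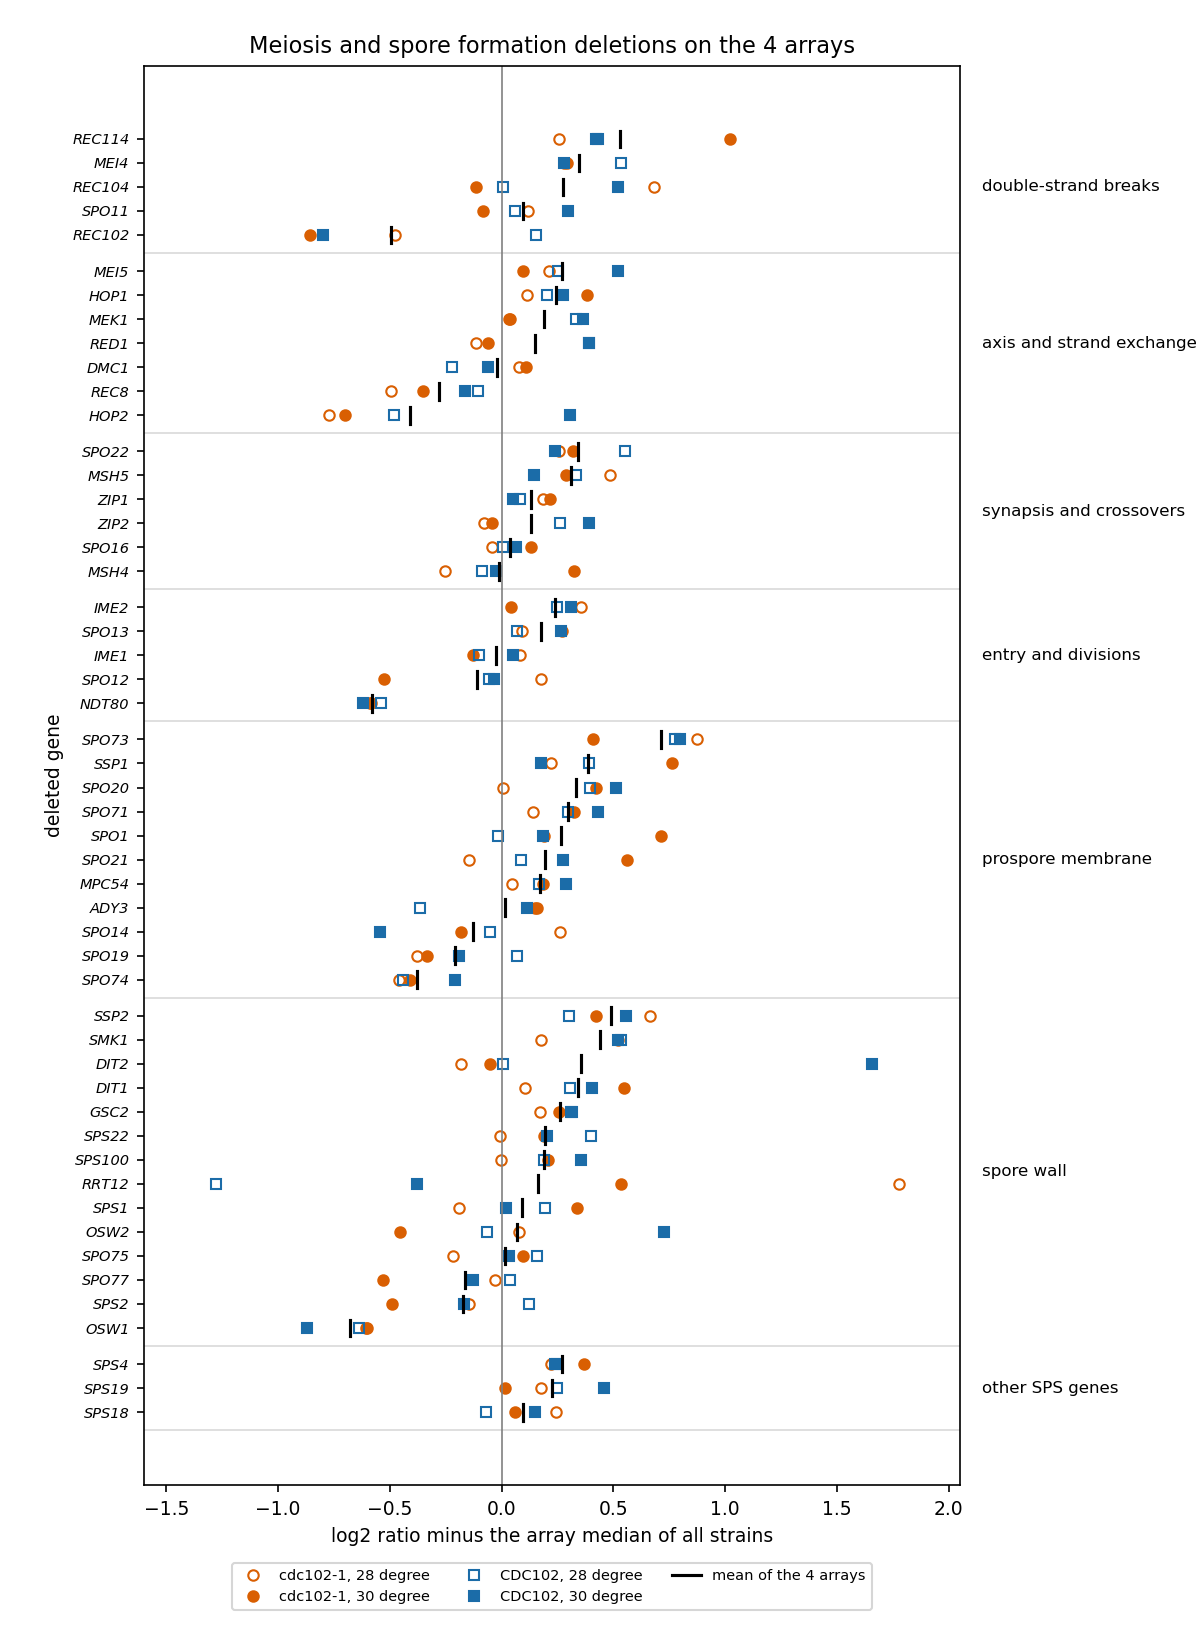
Log2 ratio minus the array median (x axis) of each of the 51 deletions, grouped by role, with a symbol for each of the 4 arrays and a black line at their mean. Most deletions lie within 0.5 of 0 on every array, NDT80 shows nearly the same value on all 4, and RRT12 spans from -1.28 to 1.78.

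Among the entry and division genes IME1 ran from -0.13 to 0.08. IME2 had values of 0.35 and 0.04 with cdc102-1 and 0.25 and 0.31 with CDC102, a mean of 0.24 ± 0.11 (adjusted p 0.206 in limma). Both lie on chromosome X with CDC102, IME1 at 152 and IME2 at 35 protein-coding genes from it in gene order. SPO12, a regulator of mitotic exit, had 0.18 and -0.53 with cdc102-1 and -0.06 and -0.03 with CDC102. Its low value on the cdc102-1 array at 30 degree was not matched on the other three.

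The prospore membrane members had a median of 0.19 and 1 call (SPO73) among 11, against 20.2% of all strains. SSP1, of the leading edge coat, had 0.22 and 0.76 with cdc102-1 and 0.39 and 0.18 with CDC102. SPO74, of the meiotic outer plaque of the spindle pole body, had -0.46 and -0.41 with cdc102-1, and -0.44 and -0.21 with CDC102 (mean -0.38 ± 0.10, adjusted p 0.088 in limma). Its first tag averaged close to 0 and its second -0.85. The genes SPS4, SPS18 and SPS19 had means between 0.10 and 0.27 with 0 calls, against the same 20.2%.

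Several members are direct neighbours on a chromosome. DIT1 and DIT2, both of dityrosine synthesis, had means of 0.34 and 0.36. SPO22 and HOP1 on chromosome IX had 0.34 and 0.24, SPS18 and SPS19 had 0.10 and 0.22, SPO12 and SPO16 had -0.11 and 0.04, and SPS2 and SPS1 had -0.17 and 0.09. The gap within these 5 pairs was at most 0.26, and the SD over all members was 0.283.

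The comparison of cdc102-1 with CDC102 asks whether a deletion behaves differently beside the mutant allele than beside the wild-type gene. RRT12 was the single member with a mean difference of at least 1, a size reached by 7.13% of all strains. RRT12, a subtilisin-like protease gene of the spore wall, had values of 1.78 and 0.53 with cdc102-1 at 28 and 30 degree and -1.28 and -0.38 with CDC102. Both cdc102-1 values were above the median and both CDC102 values below it. The difference was 3.05 at 28 degree and 0.91 at 30 degree, a mean of 1.98 ± 0.62, the sixteenth highest of 5288 strains, and both tags showed it. The first tag differed by 2.86 at 28 degree and by 1.35 at 30 degree, the second by 3.26 and 0.47. The mean over all 4 arrays was 0.16, and RRT12 did not pass the test against the median. In the fit over all strains its adjusted p was 0.564 in limma. In a fit restricted to strains whose tags were under 1 apart on every array, 109 of 3182 strains (3.43%) passed for the plasmid, RRT12 with them. That filter was made on these same values, and RRT12 was listed with its difference known. Its pass there is thus no separate evidence.

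RRT12 lies on chromosome III, 5 protein-coding genes from MATALPHA1 of the mating type locus in the gene order of the R64 reference, and strains deleted for its neighbours also scattered widely between arrays. Over the 5 measured strains on each side the range between the 4 arrays had a median of 1.41, against 0.60 for all strains, and was at least 1 in 7 of 10, against 28.1% of all strains. The range of RRT12 was 3.05 and that of the open reading frame YCR050C was 3.62. The neighbours did not share a direction: 6 of 10 were higher with cdc102-1 and 4 lower, from -0.82 for BUD23 to 1.39 for RRP43, with a median of 0.10. In 4 of them the plasmid difference had opposite signs at 28 and 30 degree, and in 6 the tags were over 1 apart on some array, while the largest tag gap of RRT12 was 0.68. The part of the chromosomal position in the value of RRT12 was not tested.

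**Figure D4:**
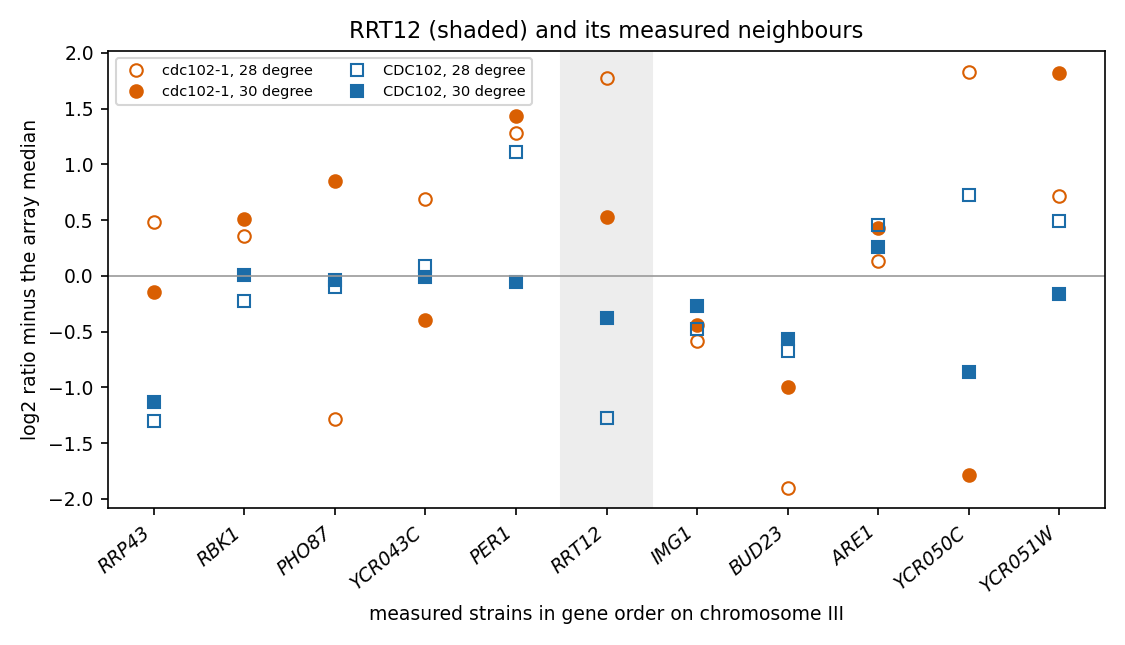
Log2 ratio minus the array median (y axis) on the 4 arrays for RRT12, shaded, and the 5 measured strains on each side of it in gene order on chromosome III. The symbols of most neighbours spread over more than 1, and RRT12 shows both cdc102-1 values above 0 and both CDC102 values below.

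No other member came near that size in the higher direction. SPO1, a phospholipase-like protein, differed by 0.37 ± 0.22, SPO14 by 0.34 ± 0.20 and ADY3 by 0.28 ± 0.24. The median plasmid difference of the members was -0.11, against 0.01 for all strains, with 20 higher and 31 lower. The arrays of the plasmids did not overlap for 6 members with cdc102-1 higher, against 22.2% of strains, and for 12 with cdc102-1 lower, against 19.8%.

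The lowest plasmid differences were those of DIT2 (-0.95 ± 0.46), HOP2 (-0.65 ± 0.28), OSW2 (-0.52 ± 0.41) and RED1 (-0.48 ± 0.20). DIT2, the cytochrome P450 of dityrosine synthesis, had values of -0.18 and -0.05 with cdc102-1 and 0.01 and 1.66 with CDC102. The value of 1.66 stood apart from the rest and came from its second tag, at 3.39, while the first was at -0.16. That second tag had no value on the cdc102-1 array at 30 degree.

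OSW2, another outer spore wall gene, had 0.08 and -0.45 with cdc102-1 and -0.07 and 0.72 with CDC102, so its difference was 0.14 at 28 degree and -1.18 at 30 degree. RED1, of the chromosome axis, had -0.12 and -0.06 with cdc102-1 and 0.39 and 0.39 with CDC102. Its plasmids did not overlap, its 12 spots were all measured, and its tag differences lay between -0.52 and -0.44. Its adjusted p was 0.602 in limma.

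In limma's plasmid test 0 of 51 members passed, and 0% of all strains, with a smallest adjusted p of 0.553 over all strains. At an unadjusted p under 0.05 there were 1 member (RRT12) and 8.74% of all strains. In simulated data on 5288 strains the plasmid test found 4% of differences of 2 (log2) and 72% of differences of 3 at the adjusted threshold. At an unadjusted p under 0.05 it found 84% of differences of 1 and 94% of differences of 2. Differences of the size measured here would thus mostly miss the adjusted threshold. Only a small share of simulated strains was shifted, so recovery at that threshold may be too low.

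**Figure D5:**
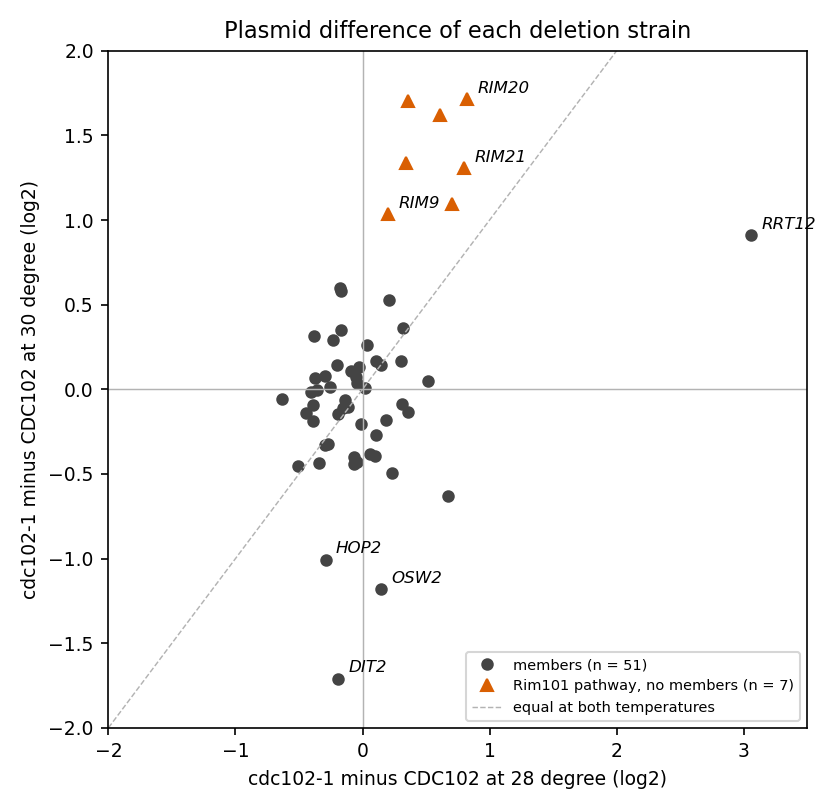
Difference of the log2 ratio between cdc102-1 and CDC102 at 28 degree (x axis) and at 30 degree (y axis) for the 51 members and for the 7 genes of the Rim101 pathway. RRT12 stands at 3.05 and 0.91, DIT2, OSW2 and HOP2 are low at 30 degree, the other members gather around 0, and all 7 pathway genes are higher at both temperatures.

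Growth at 30 instead of 28 degree moved the members little. The median difference was 0.05, against 0.003 for all strains, 0 of 51 members differed by at least 1, against 6.09% of strains, and limma called 0 members and 0% of strains, with 0 members and 5.58% of strains at an unadjusted p under 0.05. DIT2 (0.89 ± 0.46), SPO21 (0.45 ± 0.25) and HOP2 (0.43 ± 0.28) had the highest differences. That of DIT2 rested on its second tag, at 3.39 on the CDC102 array at 30 degree and without a value on the cdc102-1 array. The first tag of DIT2 stayed between -0.30 and -0.03 on the 4 arrays. For HOP2 the rise was mostly that of its first tag with CDC102, from -1.34 at 28 degree to 0.31 at 30 degree. SPO21, of the meiotic outer plaque, had -0.15 and 0.56 with cdc102-1 and 0.08 and 0.27 with CDC102, higher at 30 degree with both plasmids. The lowest were REC102 (-0.67 ± 0.25), SPO14 (-0.47 ± 0.20) and SPO12 (-0.34 ± 0.28). SPO14 had 0.26 at 28 degree and -0.18 at 30 degree with cdc102-1, and -0.05 and -0.54 with CDC102. Its arrays did not overlap by temperature, as in 5 of 51 members lower at 30 degree, against 16.8% of strains, while 11 did not overlap and were higher, against 14.3%.

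Other genes of the pathway were examined as 3 lists: 19 of recombination and segregation, 14 of entry and 26 of spore formation. Of the first, 17 were measured on all arrays, and their median was 0.12. In the test against the median 1 was higher, against 4.48% of all strains. That was PCH2, an ATPase that remodels the axis protein Hop1, with values between 0.49 and 0.60 (mean 0.56 ± 0.10, adjusted p 0.048 in limma). The lowest was LRS4, a monopolin subunit, with a mean of -0.54 ± 0.14.

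All 26 spore formation genes were measured, with a median of 0.12. In the same test 2 were higher and 1 lower, against 4.48% and 15.7% of all strains. CDA1 and CDA2, the chitin deacetylases of the chitosan layer, were higher. CDA1 had 0.88 and 1.10 with cdc102-1 and 0.84 and 0.73 with CDC102, and CDA2 had 0.48 and 1.46, and 0.35 and 0.82. They have 1 gene between them on chromosome XII, and each of their tags averaged above the median. RRT8 was lower at -0.54 ± 0.10, from a first tag at -1.30 and a second at 0.13, the same pattern as in NDT80 and OSW1.

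The entry list had a median of 0.58 over 13 measured genes and 5 called higher, against 4.48% of all strains, namely RIM101, RIM8, RIM13, RIM20 and RIM21. These belong to the Rim101 pathway, in which a sensor of alkaline pH leads to cleavage of the transcription factor Rim101, and which was first known for promoting IME1 expression. With RIM9 and DFG16 of the same list, set beside them after their values were seen, the 7 pathway genes had means between 0.58 and 1.30. All 7 were above the median on all 4 arrays, against 26.7% of all strains. RIM20, a scaffold of the cleavage, had 1.49 and 2.37 with cdc102-1 and 0.66 and 0.66 with CDC102. RIM21, a membrane sensor, had 1.55 and 2.02, and 0.75 and 0.71. In both, each cdc102-1 value exceeded each CDC102 value. The plasmid difference was 1.27 ± 0.32 for RIM20 and 1.05 ± 0.24 for RIM21. That difference was above 0 at both temperatures for all 7, against 1607 of 5288 strains, with none called (smallest adjusted p 0.553 in limma). Tags were under 1 apart in all 7, against 65.7% of strains. The entry list without these 7 had a median of 0.25 over 6 genes, the lowest being UME6, the repressor of early meiotic genes in dividing cells, at -1.13 ± 0.24 (adjusted p 0.063). Of the 9 called genes outside the members, CDA1 and RIM21 were still called under 11 of their 12 and 13 alternative settings, and RIM101 under 4.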

How the data were processed

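The authors deposited log2 ratios of 2 dyes for 22575 spots, without numerator, background correction or dye normalization given in the sources used here. Every ratio is a multiple of 0.01 within 0.1 percent, and 10 cells at a stand-in ratio of 1000000 were left out. Images were read and analysed with GenePix, per the labels. Platform annotation named 1 gene for 18794 spots, several for 0 and none for 3781, and 5321 of 5325 genes matched the R64 reference gene table, used for names and gene order only. Spots of a gene 10971 apart were taken as its tags. Which block holds uptags is not told. Spots were averaged per strain and each array centred on its strain median (from -0.27 to -0.17). limma 3.58.1 (R 4.3.3, lmFit and eBayes) fitted all 5288 strains with plasmid and temperature as additive terms, with 1 residual and 2.30 prior degrees of freedom. The named genes were those called, the extremes of each measure, those nearest to the median those with the widest gap between temperatures, RRT12 and the best known of each role, with called genes and extremes of the other lists. REC8, MEI4, MSH4, SPO75, the neighbouring pairs, RIM9, DFG16, CSM1, MAM1 and SPR3, where outside this rule, were named after their values were seen. The labels' molecule field says RNA, while the descriptions say genomic DNA. Members and lists were chosen with earlier results of these data known. In simulated data the test against the median recovered 24.0% of shifts of 1 and 94.0% of shifts of 2. At an unadjusted p under 0.05 it recovered 98% of shifts of 1. Only a small share of simulated strains was shifted, while 20.2% of strains passed in the data. The adjusted threshold was thus stricter in the simulation, and its recovery of shifts of 1 may be too low. Alternatives changed centring, normalization, spot average, tag, filters, prior, model terms and size, and left out each array. Tag sequences were not used here.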

Additional observations from a re-analysis of the deposited data

Results flagged for a closer look

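For the members given here, and for UME6 among the other genes named, the plasmid difference had opposite signs at 28 and 30 degree in the mean and in each tag. The share of all strains with this pattern was not counted, so it is not read as a trait of the members. With 1 array per condition the change of sign was not tested. The difference at 28 minus that at 30 degree was 0.37 for IME2 (0.11 and -0.27), 0.73 for SPO12 (0.23 and -0.49), 0.49 for SPO73 (0.10 and -0.39) and 0.40 for SPS18 (0.31 and -0.09). It was below 0, at -0.20 for HOP1 (-0.09 and 0.11), -0.52 for MSH4 (-0.17 and 0.35), -0.52 for SPO21 (-0.23 and 0.29), -0.70 for SPS1 (-0.38 and 0.32) and -0.44 for SPO75 (-0.38 and 0.07). For UME6 it was -1.62 (-0.67 and 0.96). No group had enough arrays to look for an outlying sample.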

How the results depend on the processing

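In the test against the median, the 3 calls became 11 of 39 members among strains with tags under 1 apart, against 42.3% of 3182 strains. The other listed genes went from 9 to 16 there. With no further terms 6 members were called, against 25.8% of strains. The second tag alone called 1 member, 537 strains and 3 other listed genes. With that tag NDT80 (0.19), OSW1 (0.24) and RRT8 (0.13) changed sign. Leaving out each array gave 377 to 854 strains, 0 to 3 members and 1 to 7 other listed genes. The plasmid count of 0 became 109 strains and 1 member (RRT12) among strains with tags under 1 apart, a filter made on these same values. Without centring, which lowers the median of all strains by 0.17 to 0.27 per array, the medians were -0.0378 for the members, -0.0674 for recombination, -0.0349 for the spore wall and -0.0168 for the prospore membrane. The members' median plasmid difference was -0.15 without centring and with quantile normalization, -0.0579 and -0.13 with the first and the second tag, -0.0813 with tags under 1 apart, and -0.13 to -0.0424 leaving out each array. For the neighbours of RRT12 it was -0.10, 0.25 and -0.11 under these tag settings, and 0.0138 to 0.51 leaving out each array. Means at least 1 from the median were found for 2 members with the first tag and 1 with the second, and 4 members passed a size of 0.5. Causes were not tested. The temperature count stayed at 0 under every alternative. The plasmids were compared within each temperature through the additive term. No pairing by culture or replicate was possible, because the labels give no replicate numbers and each condition has 1 array. Unknown signal over background limits how far any single low or high spot can be read.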

Other observations

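The monopolin complex, which clamps sister kinetochores together in the first meiotic division, was looked at after its values were seen. CSM1 had values of 1.04 and 0.35 with cdc102-1 at 28 and 30 degree and -0.47 and -1.10 with CDC102, a plasmid difference of 1.48 ± 0.20. MAM1, its meiosis-specific partner, had 0.63 and 0.80 with cdc102-1 and -0.11 and -0.09 with CDC102, a difference of 0.81 ± 0.20. In both, the cdc102-1 values exceeded the CDC102 values. LRS4 had -0.35 and -0.37, and -1.06 and -0.36, a difference of 0.35 ± 0.28. None passed limma's test over all strains, and CSM1 lies on chromosome III, as does RRT12. SPR3, a sporulation septin, had the opposite mean difference, at -1.10 ± 0.20, but its first tag had no value on the CDC102 array at 30 degree. At that temperature its mean difference therefore compares different tags. Its second tag, measured on all arrays, differed by -0.60 at 28 degree and by 0.24 at 30 degree.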
